A study of Mus musculus with 4 samples.

Results

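Gata2 and Gata3, the GATA transcription factors of the ear, are described here in mouse otocysts with their relatives Gata4, Gata5 and Gata6 and with Zfpm1 and Zfpm2, the cofactors that bind GATA proteins. Members were chosen by gene name, with earlier results of these data known. Every probe that the array design assigns to 1 of these 7 genes, of 31791 gene names on the array, was taken, which gave 9 of 39429 probes. Gata1 was left out as a gene of red blood cells and is given below among the GATA partners. RNA came from otocysts, the epithelial vesicles that form the inner ear, dissected by hand from NMRI mouse embryos at E10.5, a stage counted in days of gestation. Tbx2/3cDKO embryos carried Pax2-cre and were Tbx2(fl/fl) and Tbx3(fl/fl), so that Cre recombinase driven by Pax2 deletes both T-box genes in cells where Pax2 is or was active, which include the otic epithelium and parts of the brain and kidney. Control embryos were Tbx2(fl/?);Tbx3(fl/?), with floxed alleles and no Cre in their genotype, and the question mark leaves their second allele unspecified. Each of 4 two-colour arrays compared 1 Tbx2/3cDKO RNA with 1 control RNA of the same sex. Replicates 1 and 2 were female pairs, and replicates 3 and 4 were male pairs. The Tbx2/3cDKO RNA carried the red dye, AlexaFluor647, on replicates 1 and 3 and the green dye, AlexaFluor555, on replicates 2 and 4. No label says whether an RNA came from 1 embryo or a pool, so each p-value reflects the spread among these 4 pairs and may be technical.

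GATA factors bind DNA through zinc fingers and fall into a group known from blood and nervous system, Gata1 to Gata3, and a group known from heart and endoderm, Gata4 to Gata6. Gata3 is made in the otic placode and vesicle and is required for the shape of the inner ear, and loss of a single copy causes deafness in people with the HDR syndrome. Gata2 acts in blood progenitors and in interneurons, and in the ear it is needed for the vestibular ducts and the spaces around them. Zfpm1, also called FOG1, and Zfpm2, also called FOG2, bind the amino-terminal zinc finger of GATA factors and recruit corepressors.

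Values are log2 ratios of Tbx2/3cDKO over control within an array, after background correction and loess normalization. A level is the normalized log2 intensity of 1 RNA at 1 probe, and levels of different probes are not set against each other. Of 39429 probes, 23202 were well above background, by the scanner software's flag, on at least 3 arrays in either genotype, and 23186 of these could be tested. No member spot was saturated. At a Benjamini-Hochberg adjusted p under 0.05 in limma, 12.4% of tested probes were higher and 9.69% were lower in Tbx2/3cDKO otocysts. The median log2 ratio over all tested probes was 0.00, and the 4 arrays correlated with each other at 0.643 to 0.849 across probes. Tbx3 was lower on every array (log2 ratio -3.43, SD 0.16, n = 4, limma adjusted p = 3.2628e-06). The probe of Tbx2 did not differ detectably (log2 ratio 0.06, SD 0.23, n = 4, limma adjusted p = 0.656), and no source used here says whether it lies in the deleted part of the gene. The probe therefore does not check the deletion of Tbx2.

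Of the 9 member probes, 8 passed the filter, and Gata4 had no probe that did. Lower in Tbx2/3cDKO otocysts were 2 probes, those of Gata2 and Gata3. Higher were 3 probes, that of Gata6 and both of Zfpm2. The remaining 3, of Gata5 and Zfpm1, did not pass the test. Probes of 1 gene are not independent, and 4 genes had a called probe in all.

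**Figure D1:**
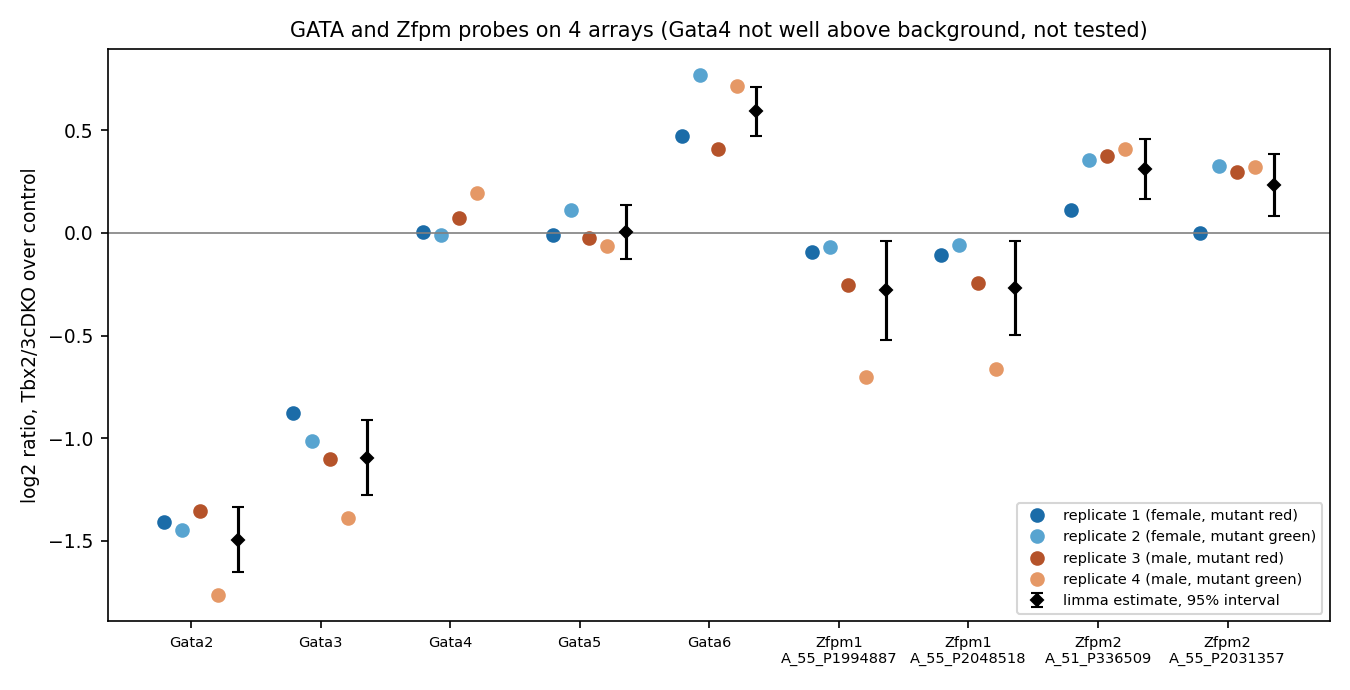
Log2 ratio of Tbx2/3cDKO over control on each of the 4 arrays for all 9 member probes (circles, coloured by replicate), with the limma estimate and its 95% interval (black diamonds) for the 8 tested probes. Gata2 and Gata3 lie below 0 and Gata6 above 0 on all 4 arrays, Zfpm1 falls lowest on replicate 4, and Gata4 was not well above background.

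The probes read short stretches of each transcript, and what the array can say of a gene depends on them. The first 30 of 60 bases are shown for the probes of the 2 genes that fell and for that of Gata5, whose letters recur in the genome. Coordinates are those of build mm9 in the file headers and cover the whole probe. The Gata2 probe lies at chr6:88156362-88156421 on the plus strand (NM_008090), the Gata3 probe at chr2:9779551-9779610 on the minus strand (NM_008091), and the Gata5 probe at chr2:180059867-180059926 on the minus strand (NM_008093).
Gata2: aactgcataagcttaacccgctgatgagtg
Gata3: ttaaggaatatagggggattaaagtatgga
Gata5: tttttgagacagggccttactatgtagctc
Each probe was laid without gaps along both strands of the promoter windows of other genes in the RefSeq table. The Gata5 probe matched at 45 or more of its 60 bases in 52 of 32850 windows, while no other member probe did so in any.

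Gata2 was the member that fell most. Its level was 10.39, 10.16, 10.19 and 10.11 in the Tbx2/3cDKO RNAs of replicates 1 to 4, against 11.80, 11.60, 11.54 and 11.88 in the control RNAs. The lowest control RNA stood above the highest Tbx2/3cDKO RNA by more than the spread within either genotype, and the groups did not overlap. How many of all tested probes separate in this way was not counted, so non-overlap, here and below, only describes the values. Within arrays the log2 ratios were -1.41, -1.45, -1.36 and -1.77. Gata2 RNA was thus 2.82-fold lower in Tbx2/3cDKO otocysts (95% interval 2.53 to 3.14, limma adjusted p = 2.4177e-05), at 35.5% of the control level. Only 43 of the tested probes had a lower estimate, or 0.185%.

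Gata3 fell too, and on every array by less than Gata2. Its level was 11.49, 11.34, 11.27 and 11.29 in Tbx2/3cDKO RNAs, against 12.36, 12.36, 12.37 and 12.68 in control RNAs. Again the groups did not overlap, and the control RNA of replicate 4 stood above the other 3. The log2 ratios were -0.88, -1.01, -1.10 and -1.39, a 2.14-fold lower level (95% interval 1.88 to 2.43, limma adjusted p = 0.00014358), or 46.8% of control. A lower estimate than that of Gata3 was found for 97 of the tested probes, or 0.418%.

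Since both genes were read on the same arrays, their changes can be set against each other. Gata2 minus Gata3, as a difference of log2 ratios, was -0.53, -0.43, -0.26 and -0.38 on replicates 1 to 4, with a mean of -0.40 (SD 0.11, n = 4). All 4 differences had the same sign, and the exact two-sided sign-flip permutation test gave the smallest p that 4 arrays allow, which cannot pass 0.05. Each gene was read by 1 probe, so the difference is one between these probes. In dissected tissue, fewer cells of a type and less RNA per cell cannot be told apart, which holds for all changes given here.

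**Figure D2:**
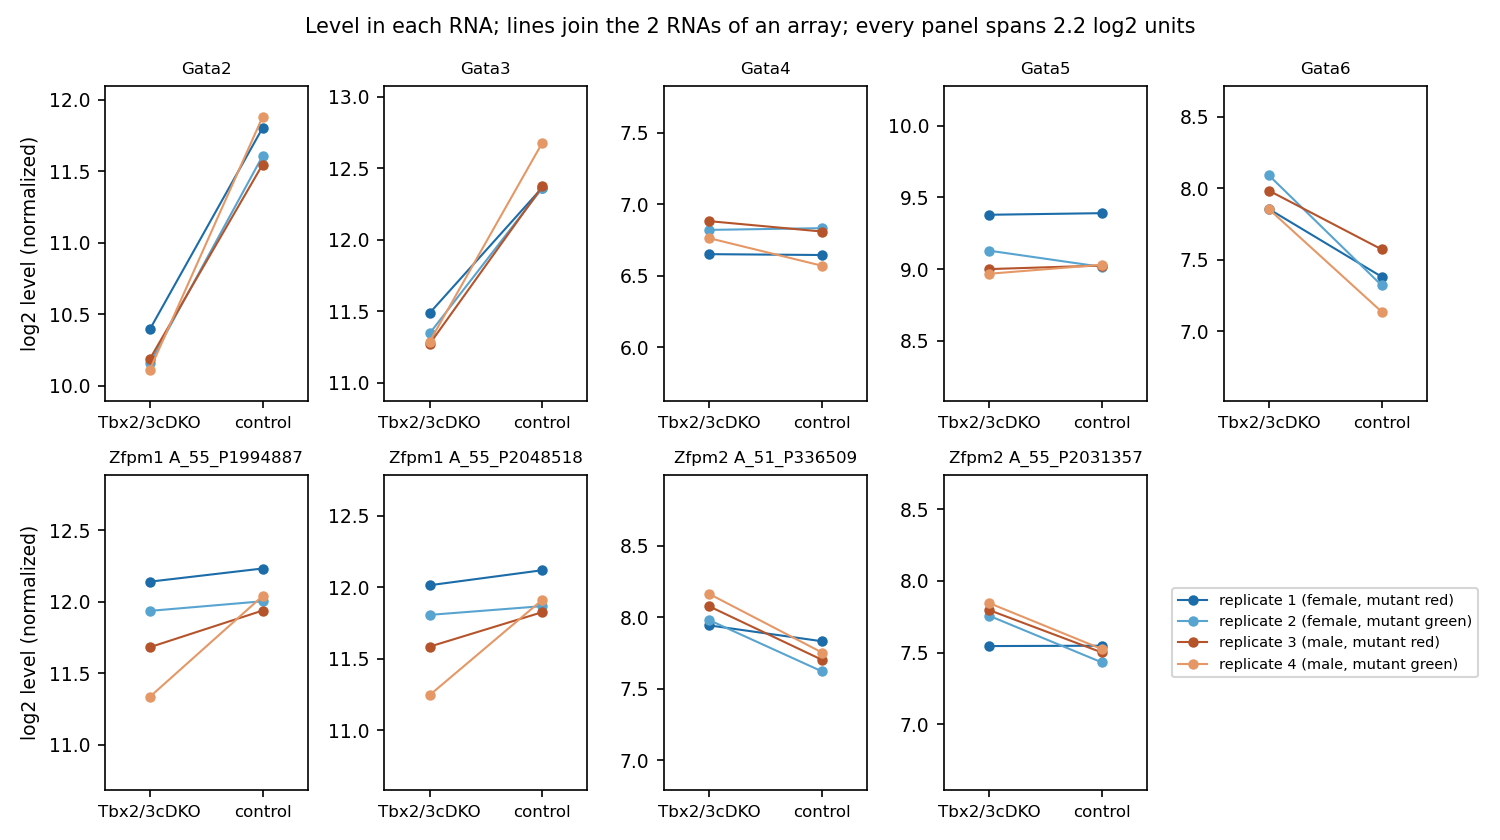
Normalized log2 level of each member probe in the Tbx2/3cDKO RNA (left) and the control RNA (right), with lines joining the RNAs of 1 array and all panels on the same span of log2 units. The lines of Gata2 and Gata3 climb towards control on all 4 arrays and those of Gata6 descend, while those of Gata5 run flat.

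Among the relatives known from heart and endoderm, Gata6 was higher in Tbx2/3cDKO otocysts. Its level was 7.86, 8.09, 7.98 and 7.86 in Tbx2/3cDKO RNAs, against 7.38, 7.32, 7.57 and 7.14 in control RNAs, and it was well above background in all 8. The groups did not overlap. The log2 ratios were 0.47, 0.77, 0.41 and 0.72, which is 1.51-fold higher (95% interval 1.39 to 1.64, limma adjusted p = 0.00032382). The larger ratios were those of replicates 2 and 4, where Tbx2/3cDKO RNA was green, with a mean of 0.74 against 0.44 on the arrays where it was red. From the scanner software's own log ratios the estimate was 0.91 (limma adjusted p = 0.00134). That lies above the 95% interval, which is 0.47 to 0.71 on the log2 scale, so the size of the rise depends on the processing. The probe was dim, and only 15.3% of the probes that passed the filter had a lower mean intensity. A higher estimate than that of Gata6 was found for 690 of the tested probes, or 2.98%.

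Gata4 was not well above background in any RNA of either genotype, with levels of 6.65 to 6.88 in Tbx2/3cDKO RNAs and 6.57 to 6.83 in control RNAs. No fold is given for it.

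Gata5, by contrast, was measured but level. Its values were 9.38, 9.13, 9.0 and 8.97 in Tbx2/3cDKO RNAs, against 9.39, 9.02, 9.02 and 9.03 in control RNAs, so that the groups overlapped fully. The log2 ratio was 0.00 (SD 0.08, 95% interval -0.13 to 0.13, limma adjusted p = 0.974). Because the letters of its probe recur at many sites, as given above, it is uncertain that Gata5 transcripts gave this signal.

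Of the cofactors, Zfpm2 was slightly higher in Tbx2/3cDKO otocysts and Zfpm1 did not pass the test. Zfpm1 was read by 2 probes that share 55 of 60 bases, at chr8:124861092-124861151 and chr8:124861087-124861146, so they are near repeats of 1 measurement. At the first probe, A_55_P1994887, the log2 ratios were -0.09, -0.07, -0.26 and -0.70, and at the second, A_55_P2048518, they were -0.11, -0.06, -0.24 and -0.67. On both probes replicate 4 had the lowest ratio by far and the levels of the genotypes overlapped. The estimates were -0.28 (SD 0.29, limma adjusted p = 0.102) and -0.27 (SD 0.28, limma adjusted p = 0.101), neither past the test. The call changes with the setting: without replicate 2 the estimates were -0.44 and -0.42 (limma adjusted p = 0.00207 and 0.00246), and without replicate 4 both were -0.12.

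Zfpm2 was read by 2 probes that share only 7 bases, at chr15:40935115-40935174 and chr15:40935062-40935121. The first, A_51_P336509, had levels of 7.94, 7.98, 8.07 and 8.16 in Tbx2/3cDKO RNAs, against 7.83, 7.62, 7.70 and 7.75 in control RNAs. These did not overlap, and the estimate was 1.24-fold higher (log2 ratio 0.31, 95% interval 0.17 to 0.46, limma adjusted p = 0.0113). The second, A_55_P2031357, had log2 ratios of -0.00, 0.33, 0.30 and 0.32. Replicate 1 thus showed no difference while the other 3 lay close together, and the levels overlapped (log2 ratio 0.24, SD 0.16, limma adjusted p = 0.0398). Neither call held when replicate 3 was left out, where the estimates were 0.25 and 0.16 (limma adjusted p = 0.0743 and 0.241), and that of the second probe was also lost without replicate 2 or without replicate 4 (limma adjusted p = 0.0707 and 0.0726).

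**Figure D3:**
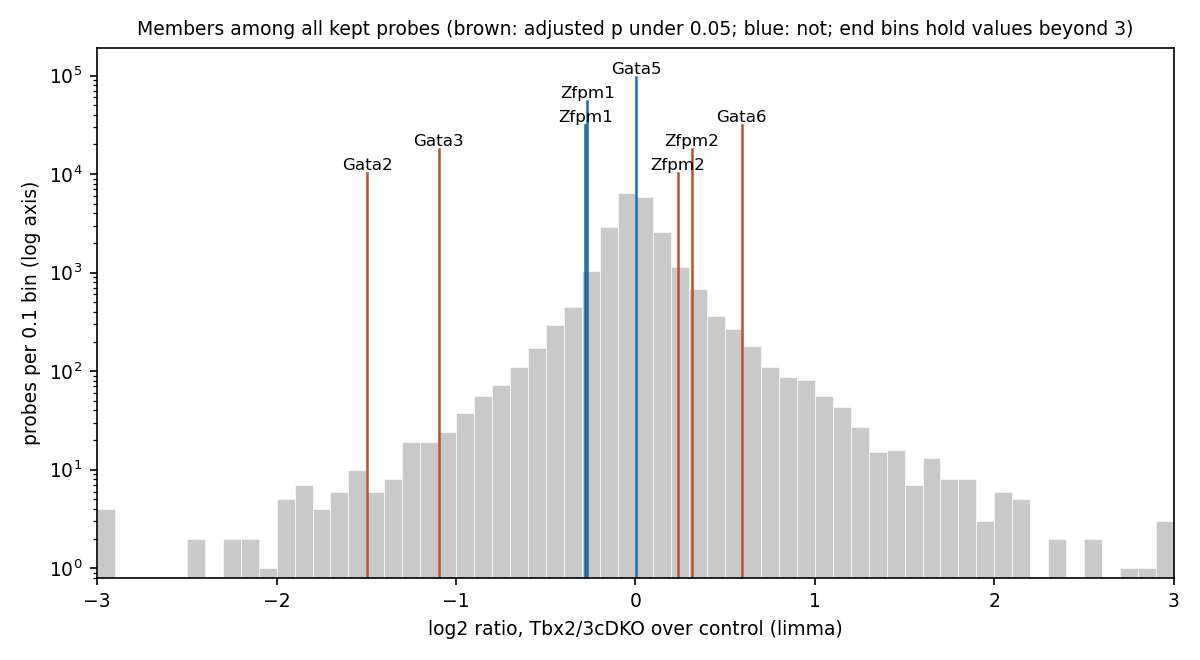
Number of tested probes in each bin of log2 ratio (grey, log axis) with the members marked (brown past the limma threshold, blue not). Gata2 at -1.50 and Gata3 at -1.10 stand in the lower tail, and the other members lie within 1 log2 unit of 0.

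The sexes could be compared with 2 arrays each. Gata2 had a mean log2 ratio of -1.56 on the male arrays and -1.43 on the female arrays, and Gata3 -1.25 on the male and -0.95 on the female arrays. Male minus female was -0.13 for Gata2 (limma adjusted p = 0.596) and -0.30 for Gata3 (limma adjusted p = 0.196). The Zfpm1 probes differed by -0.40 and -0.37 (limma adjusted p = 0.197 and 0.218). No member passed the adjusted threshold for a sex difference, 3 member probes had an unadjusted p under 0.05, and 4 of all 23186 probes passed. Gata2 and Gata3 were lower in Tbx2/3cDKO otocysts within each sex and within each dye orientation. By dye, Gata2 averaged -1.38 with Tbx2/3cDKO RNA in red and -1.61 in green, and Gata3 -0.99 in red and -1.20 in green.

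Over the 8 RNAs, the genes whose levels were most like those of Gata2 were found by Pearson correlation among 12253 genes. These were well above background in every RNA, and clone and provisional names, such as those ending in Rik, were left out. The genes most like Gata2 are given first. They were Dlx5, a homeobox gene of the dorsal otocyst (r = 0.998), Tbx1, a T-box gene of the ear (0.996), the kelch-like gene Klhl29 (0.994) and the collagen chain genes Col5a3 (0.994) and Col9a3 (0.993). Their own log2 ratios were -1.19, -1.39, -1.22, -1.12 and -0.81. For Gata3 they included the Krüppel-like factor gene Klf5 (0.993), Tbx1 (0.992), Gata2 itself (0.992) and the phosphodiesterase gene Pde8b (0.991). Klf5 had a log2 ratio of -0.75 and Pde8b of -0.41. These coefficients are a description, since the 8 RNAs share arrays and dyes and fall into 2 genotypes.

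Genes that lie beside Gata2 and Gata3 on the chromosome were taken by place, the 3 nearest with a probe on each side in the RefSeq table. Around Gata2, the oligosaccharyltransferase gene Rpn1 (log2 ratio -0.09, limma adjusted p = 0.322), the endosome gene Rab7 (-0.07, 0.510), Gm5577 (0.03, 0.761) and the helicase gene Ruvbl1 (-0.11, 0.173) did not pass the test, and Dnajb8 was not above background. Eefsec, a selenocysteine translation factor, fell by 0.25 on the log2 scale (limma adjusted p = 0.0129). None of these came near the change of Gata2.

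Around Gata3 1 neighbour behaved otherwise. The long noncoding RNA gene 4930412O13Rik, which overlaps the annotated span of Gata3, had log2 ratios of -1.27, -1.52, -1.48 and -1.58 on replicates 1 to 4. Its level averaged 10.36 in Tbx2/3cDKO RNAs and 11.82 in control RNAs, and its estimate of -1.46 (SD 0.13, limma adjusted p = 1.7221e-05) was below that of Gata3. The noncoding gene has 2 probes on the array, and these values are from the 1 that passed the filter. That probe lies at chr2:9808308-9808367 of mm9 on the plus strand. The Gata3 probe is on the minus strand, so they read opposite strands. The other tested neighbours differed little. Celf2, an RNA-binding protein gene, fell by 0.23 on the log2 scale (limma adjusted p = 0.0192). Taf3 (0.03, limma adjusted p = 0.802) and Atp5c1 (0.02, limma adjusted p = 0.868) did not pass the test. Gm13391 and Gm13219 did not pass the filter on dim probes. Gm13219 had log2 ratios of -0.63, -0.52, -0.74 and -0.47, but was well above background in only 1 control RNA and was not tested.

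**Figure D4:**
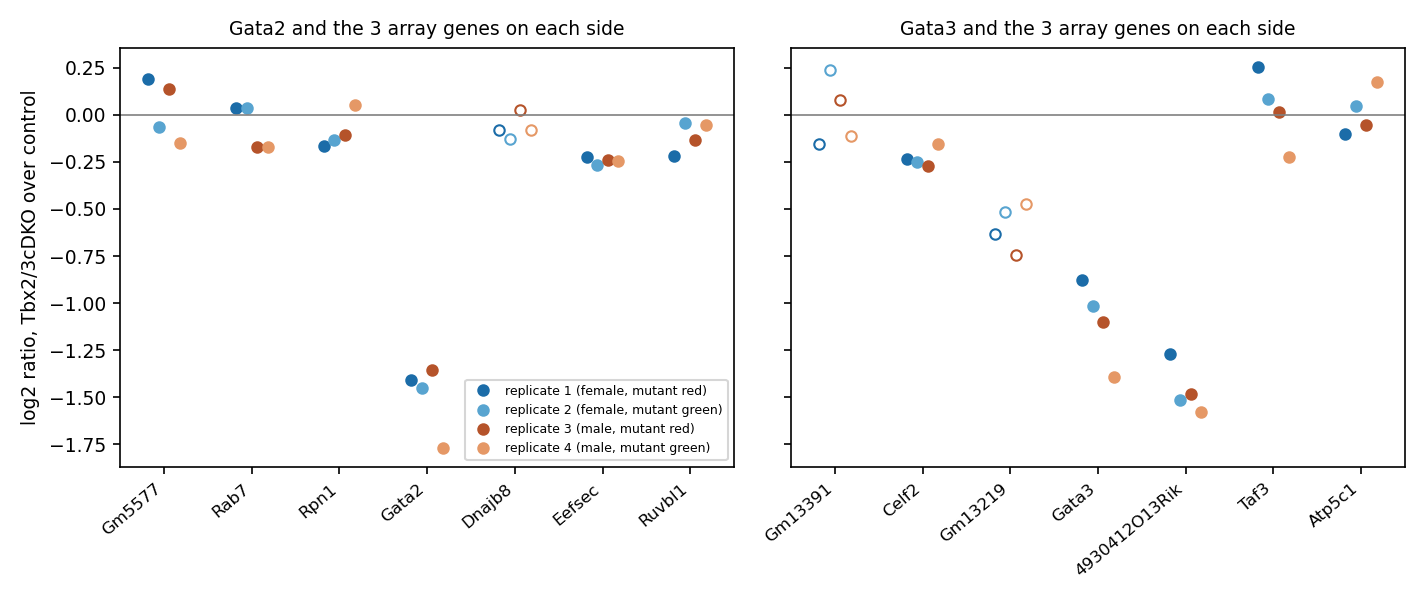
Log2 ratio of Tbx2/3cDKO over control on each array for Gata2 (left panel) and Gata3 (right panel) and the 3 nearest array genes on each side, in chromosomal order; open circles mark genes that did not pass the filter. Gata2 stands alone among its neighbours, and beside Gata3 the overlapping noncoding gene 4930412O13Rik lies at -1.27 to -1.58.

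Since Gata2 and Gata3 fell together when 2 T-box factors were deleted, their promoters are shown, with the 250 bases before the RefSeq transcription start on the strand of the gene (GRCm38.p6). RefSeq gives Gata2 2 starts in the table, of which the upstream one is shown, at chr6:88193641-88193890 on the plus strand. The Gata3 stretch is chr2:9878601-9878850 on the minus strand. Promoters of 4 of the 7 members were matched by symbol.
Gata2: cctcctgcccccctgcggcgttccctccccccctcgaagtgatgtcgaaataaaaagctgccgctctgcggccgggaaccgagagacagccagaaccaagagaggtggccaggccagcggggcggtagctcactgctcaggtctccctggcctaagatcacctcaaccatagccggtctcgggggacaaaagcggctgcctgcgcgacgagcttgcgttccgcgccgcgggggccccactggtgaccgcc
Gata3: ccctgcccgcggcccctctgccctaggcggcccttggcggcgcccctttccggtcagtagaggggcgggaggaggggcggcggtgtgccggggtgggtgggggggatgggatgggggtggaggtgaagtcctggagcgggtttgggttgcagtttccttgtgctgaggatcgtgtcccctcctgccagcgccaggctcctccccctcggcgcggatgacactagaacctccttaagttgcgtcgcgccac
Windows of 300 bases, 250 before and 50 after each start, were searched on both strands. The T-box half-site AGGTGTGA was in neither gene's windows and is in 1.28% of 32851 promoters. Its core GTGTGA, contained in the half-site, occurred once, after the upstream Gata2 start, and is in 14.5% of promoters. The 30 bases that hold it, chr6:88193911-88193940 of GRCm38.p6 on the plus strand, are shown with the core in capitals as it reads on the opposite strand.
Gata2 core: gggccgaccagccacgccgcTCACACcgct
The GATA motif AGATAA, in 11.2% of promoters, was in none of the matched member windows. GC content was 69.3% in the 300-base window of the upstream Gata2 start and 67.3% in that of Gata3, against a median of 52.7% over all promoters. A match describes letters and not a binding site, and a missing match says only that these letters are not in these windows.

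GATA factors work with partner proteins, and of 34 partner and GATA-type zinc finger genes, each read by its brightest kept probe, 33 were tested. Of these, 9 were higher in Tbx2/3cDKO otocysts, 2 were lower and 22 did not pass the test, with a median log2 ratio of 0.06. Over all 18438 genes tested, 13.1% were higher and 9.8% were lower, with a median of 0.00. Among the higher partners were Tal1, Lmo2 and Lyl1, whose proteins work with Gata1 and Gata2 in blood cells, while Ldb1 (log2 ratio 0.07, limma adjusted p = 0.574) and Tcf3 (0.08, adjusted p = 0.528) of the same complex did not pass the test. Tal1, its basic helix-loop-helix factor, had log2 ratios of 1.05, 0.98, 0.93 and 0.94 (limma adjusted p = 5.2e-05). Gata1, the red cell factor, had log2 ratios of 1.34, 0.86, 0.88 and 1.12, with a mean level of 9.69 in Tbx2/3cDKO RNAs against 8.64 in control RNAs (limma adjusted p = 0.000288). Lmo2, the LIM-only bridging factor, was higher by 0.58, Lyl1 by 0.54 and the ETS factor gene Fli1 by 0.46 on the log2 scale. Runx1, a blood progenitor factor, was not well above background in control RNAs and was at least 1.47-fold higher, from its brighter probe, while its other probe gave a log2 ratio of 0.06 (limma adjusted p = 0.510).

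The remaining higher partners were Trps1, an atypical GATA-type repressor (0.51), the histone-binding subunit gene Rbbp4 (0.43) and the E protein gene Tcf12 (0.28). The second probes of Rbbp4 (-0.15, limma adjusted p = 0.188) and Tcf12 (0.02, 0.895) did not pass the test, nor did 1 of the 3 probes of Trps1 (0.43, 0.132). Lower in Tbx2/3cDKO otocysts was Lmo4, a LIM-only factor made in the inner ear, with log2 ratios of -0.64, -0.48, -0.63 and -0.45 (limma adjusted p = 0.000405), and its other probe gave -0.65. Cbfa2t3, a corepressor of the blood GATA complex, had probes that disagree: the brighter one was lower, at -0.78, -0.87, -0.97 and -1.15 (limma adjusted p = 0.00016), and the other was higher with an estimate of 0.49 (SD 0.27, limma adjusted p = 0.0139). Its direction is therefore uncertain. The other subunits listed for the NuRD corepressor, which Zfpm1 recruits, were Chd4, Hdac1, Hdac2, Mta1, Mta2, Mbd2, Mbd3, Rbbp7, Gatad2a and Gatad2b, and none of them passed the test.

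**Figure D5:**
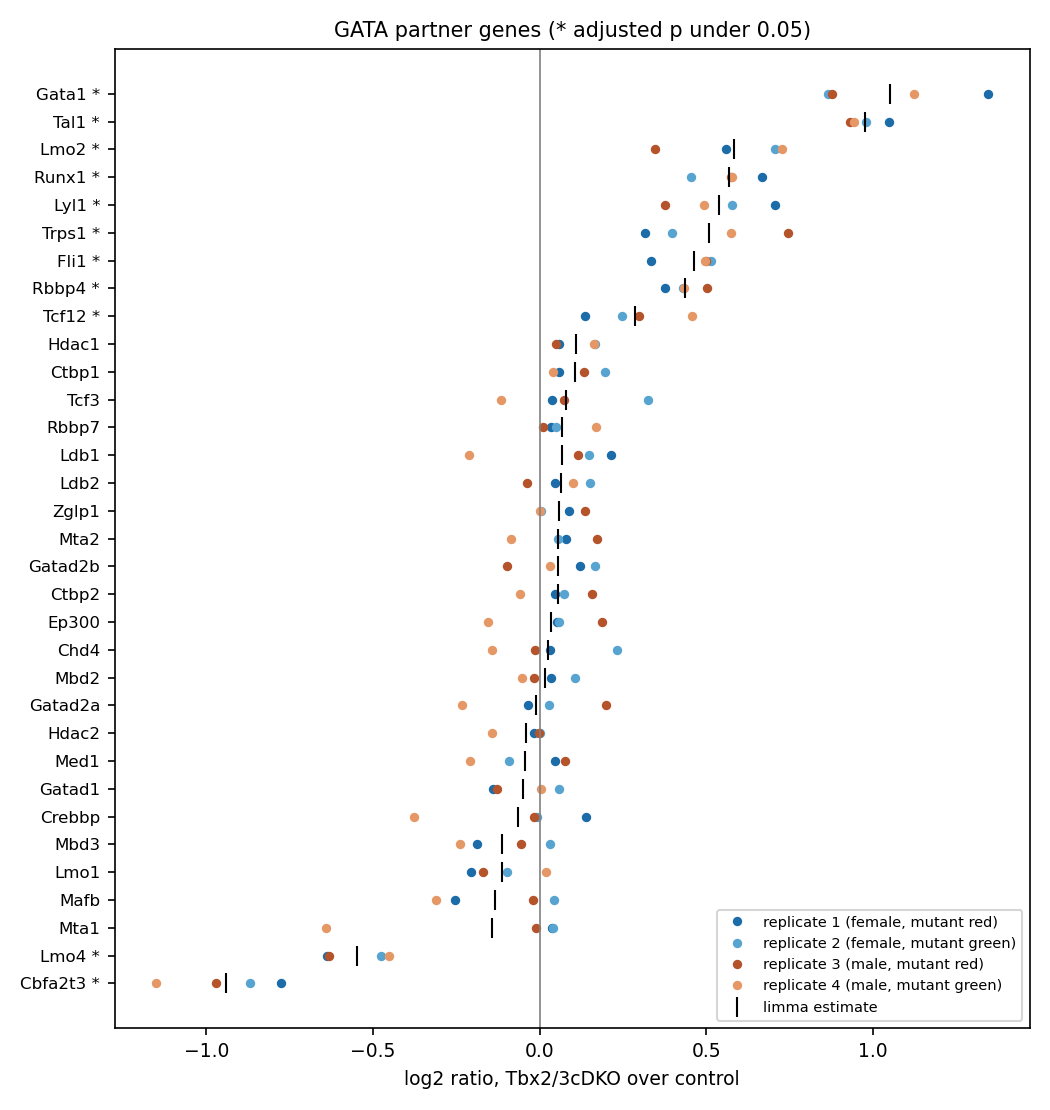
Log2 ratio of Tbx2/3cDKO over control on each array (circles) and the limma estimate (bar) for the GATA partner genes, with an asterisk at those past the limma threshold. Tal1 and Gata1 lie near 1, Cbfa2t3 and Lmo4 lie below 0, and 22 genes did not pass the test.

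Marker lists give what else moved with the members, each gene read by its brightest kept probe. Each list was summed over linear levels of an RNA. Where a listed gene had no kept probe, 1 probe that did not pass the filter still entered the sum. Of 15 otic epithelium genes, 9 were lower, with a median log2 ratio of -0.35 and summed levels of 210910 to 251320 in Tbx2/3cDKO RNAs and 321350 to 372610 in control RNAs. The smallest adjusted p-values among the lower genes were those of Oc90, an otoconial protein gene (-1.83), Tbx1 (-1.39), Dlx5 (-1.19) and Krt8 (-0.81). Genes with high levels weigh most in a linear sum. Oc90 was such a gene, with a mean level of 14.99 in Tbx2/3cDKO RNAs against 16.82 in control RNAs. The lower sum therefore does not describe all 15 genes alike. Of the 16 genes of the lateral and nonsensory otocyst, where Gata2 and Gata3 are known to be made, 11 were lower and 3 were higher, with a median of -0.59. The summed levels of this list overlapped between genotypes, at 131780 to 145190 in Tbx2/3cDKO RNAs and 135630 to 159180 in control RNAs. Nr2f1, a higher gene, weighs most in this sum, with a mean level of 16.15 in Tbx2/3cDKO RNAs against 15.56 in control RNAs. The overlap therefore does not describe the lower genes. Among them the homeobox genes Hmx2 (-1.94), Otx1 (-1.71) and Otx2 (-2.18) fell, and the netrin gene Ntn1 (1.81) and the nuclear receptor genes Nr2f2 (1.14) and Nr2f1 (0.59) were higher. Gata2, at -1.50, and Gata3, at -1.10, lay within the range of these genes, and below the medians of both lists. The lists are not independent, since Dlx5, Hmx3 and Tbx1 are on both. What part the lower values of otic genes have in the fall of Gata2 and Gata3 was not tested.

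Markers of blood and vessels, which also use Gata2, were higher. Of 15 erythroid genes, 13 were higher and none was lower (median 1.05), with sums of 1099700 to 1188100 in Tbx2/3cDKO RNAs and 383160 to 591010 in control RNAs. The smallest adjusted p-values were those of the globin genes Hbb-bh1 (1.45), Hbb-y (1.29) and Hba-a1 (1.34) and of Slc4a1, the anion exchanger of red cells (1.11). All 14 endothelial genes were higher (median 0.63), with sums of 41780 to 45428 in Tbx2/3cDKO RNAs and 27863 to 32583 in control RNAs, with the smallest adjusted p-values for Sox17 (0.79), Robo4 (0.86), Emcn (0.70) and Pecam1 (0.66). Of 11 tested genes of blood progenitors, megakaryocytes and mast cells, 9 were higher and none was lower, with the smallest adjusted p-values for Pf4 (1.44), Gp9 (0.96), Ppbp (1.29) and Kit (1.11), with sums of 19114 to 24668 in Tbx2/3cDKO RNAs and 9593 to 10021 in control RNAs. Gata2, though also a gene of these cells, was lower in RNA of the whole dissected tissue, which does not give its level in them. The part of these cells in the higher values of Gata1, Tal1, Lmo2 and Lyl1 was not tested.

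For Gata6 and Zfpm2, known from heart, endoderm and mesenchyme, the markers differed by list. The heart factors Nkx2-5, Tbx5, Tbx20 and Hand2 were not above background, and of 7 tested cardiac genes 3 were higher, the actin gene Actc1 (1.66) and the myosin light chain genes Myl4 (0.27) and Myl7 (0.26), and Tnnt2, not well above background in Tbx2/3cDKO RNAs, was at least 1.19-fold lower. Only 1 cardiac gene was higher without replicate 1 or without replicate 3, and none was lower without replicate 3. Of 11 endoderm and pharyngeal genes 2 were tested, Sox17, which is also endothelial, and Cldn6 (-0.31), and the other 9, Foxa1, Foxa2, Shh and Nkx2-1 among them, were not above background. Of 15 tested genes of the periotic mesenchyme, the connective tissue around the otocyst, 10 were higher and none was lower (median 0.32), with sums of 86571 to 95115 in Tbx2/3cDKO RNAs and 69838 to 79995 in control RNAs, with the smallest adjusted p-values for Osr1 (1.24), Foxc1 (0.93), Foxc2 (1.18) and Tbx18 (0.79). The part of mesenchyme or vessels in the higher values of Gata6 and Zfpm2 was not tested.

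The other possible sources of Gata2 and Gata3 RNA were the hindbrain and the surface ectoderm. Of 15 genes of the hindbrain and of the interneurons that use Gata2 and Gata3, 5 were tested. Foxn4, a factor of those interneurons, was not well above background in control RNAs and was at least 2.14-fold higher, and Gad2 was higher by 0.53, while Hoxb2 (-0.41) and Nkx6-1 (-0.45) were lower, with only 1 gene lower without replicate 3. Summed levels were 2361 to 2630 in Tbx2/3cDKO RNAs and 2359 to 2652 in control RNAs. The genotypes overlapped in this sum, which includes the genes that were not tested and genes that moved in opposite directions. Of 8 tested surface ectoderm genes, 3 were higher, Krt15 (1.13), Tfap2a (0.37) and Tfap2c (0.33), none was lower, and sums were 4812 to 5210 in Tbx2/3cDKO RNAs and 4403 to 4702 in control RNAs.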

How the data were processed

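Total RNA of dissected otocysts was hybridised to 4 two-colour Agilent arrays, each with 1 Tbx2/3cDKO and 1 control RNA, dyes swapped on 2. The authors deposited the spot intensity values and log10 ratios of red over green that Agilent Feature Extraction wrote (version 10.7.3.1, per the file headers). The deposited series table holds a score per probe, a signed fold ratio, which on the log2 scale lies within 0.001 of the scanner ratios, turned to Tbx2/3cDKO over control, for 90.8% to 93.3% of probes. Its column medians are 0 in log2, and any further step in its making is unknown here.

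From the mean and local background intensity, normexp correction (offset 50), loess within arrays (control spots at weight 0) and limma 3.58.1 in R 4.3.3 were run. Genotype was coded by dye orientation with a dye term, and the Benjamini-Hochberg adjustment ran over all tested probes. Non-uniform outlier spots, 21 to 32 an array, were left out, and spots of a probe were averaged. Levels of each RNA came from the same arrays after Aquantile scaling. A lower bound, written as at least, sets the brighter group's mean against a mean over the arrays for the other group. On each array that mean takes the lowest level called well above background or the probe's own level, whichever is higher. Precision is limited by 4 arrays. The fit was tested on simulated data.

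Replicate numbers pair the RNAs of 1 array, so the within-array ratio is a paired comparison, and a separate-channel fit without the pairing was an alternative. Others changed the background correction, normalization, starting values, filter, dye term, outlier spots, probe rule and sex term, or left out each replicate. All members were named, with Tbx2 and Tbx3, the 5 genes most like Gata2 and Gata3, and up to 4 genes a list with the smallest adjusted p. The chromosomal neighbours were chosen outside that rule, by place, and further genes of the lists were named after their values were seen. Members and lists were chosen with earlier results of these data known. Gene names are those of the array design. Values of 1 gene among those most like Gata3 and of 1 otic gene are not reported here. Protein sequences were not used here.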

Additional observations from a re-analysis of the deposited data

Results flagged for a closer look

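In 27 groups of 4 values, the log2 ratios and the levels in either genotype of the 9 member probes, 3 had a value far from the other 3 by Dixon's test, and chance gives about 1 in 20. The control level of Gata3 in replicate 4 was 12.68, while the nearest of the others was 12.37. The control level of Gata5 in replicate 1 was 9.39, with the nearest other at 9.03. The Zfpm2 probe A_55_P2031357 had a log2 ratio of -0.0024 on replicate 1, with the nearest other at 0.30.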

How the results depend on the processing

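Gata2 (-1.58 to -1.42, adjusted p up to 0.000488), Gata3 (-1.19 to -1.0, up to 0.00189) and Gata6 (0.58 to 0.91, up to 0.0022) kept their direction and stayed past the limma threshold in all 15 alternatives, and Gata2 minus Gata3 ran from -0.46 to -0.36 in 7. Without the pairing of RNAs by array (no replicate block), Gata2 was at -1.50 and Gata3 at -1.10, with 2361 probes higher and 1790 lower, and no member call changed. Gata5, never past the threshold, turned to -0.033 from the scanner ratios and from the series table, and ran from -0.040 to 0.048 with 1 replicate left out. The Zfpm1 probes passed the threshold with a sex term (-0.28 and -0.27) and with median centring (-0.28 and -0.26), which makes 4 lower member probes in place of 2 in both settings. With 1 replicate left out, they ran from -0.44 to -0.12 and from -0.42 to -0.12, the Zfpm2 probes from 0.25 to 0.38 and from 0.16 to 0.31, lower member probes from 2 to 4 and higher ones from 1 to 3. Lower probes in all ran from 1339 to 2165 and lower genes from 1095 to 1707, the fewest without replicate 3. The cause of these shifts was not tested. With no filter, Gata4 had a log2 ratio of 0.06 (limma adjusted p = 0.597). With 1 probe per gene, the second probes of Zfpm1 and Zfpm2 have no value, and gene counts with no filter were not run. Dim probes, Gata4 foremost, are limited by signal over background.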
